A study of Homo sapiens with 4 samples.

Results

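The genes described are CCAR2, the target of the hairpin, its paralog CCAR1, the CCAR2 partner ZNF326, and the 7 sirtuin genes SIRT1 to SIRT7. They were chosen by name, with earlier results of these data known. CCAR1, ZNF326 and SIRT1 are related to the CCAR2 protein (also called DBC1, deleted in breast cancer 1), and SIRT2 to SIRT7 are the other sirtuins. The members make up 10 of the 18417 genes that the arrays measured with a probe set of a single symbol. Each of the 10 had 1 such probe set, and all 10 lay above the intensity filter described below, so 10 of the 13813 genes tested were members. Expression was measured on 4 Affymetrix gene arrays of MDA-MB-231 cells, an established line from human breast cancer that lacks hormone receptors and is mesenchymal in character. The shNS group (2 arrays) held cells that carried a non-specific short hairpin RNA, and the shDBC1 group (2 arrays) held cells with a hairpin against DBC1. No other treatment was named in the labels of either group. The series describes the 2 replicates of each group as independent and biological. For the sequence of the hairpins, and for whether each line was a clone or a pool, nothing was stated in the labels.

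CCAR2 is a nuclear protein that binds the catalytic domain of SIRT1 and inhibits it. SIRT1 belongs to the sirtuins, enzymes that use NAD to remove acetyl and other acyl groups from proteins. SIRT1, SIRT6 and SIRT7 are mainly nuclear, SIRT2 is mainly cytoplasmic, and SIRT3, SIRT4 and SIRT5 are mitochondrial. With the zinc finger protein ZNF326, CCAR2 forms the DBIRD complex, which binds RNA polymerase II and takes part in the splicing of exons in AT-rich DNA. CCAR1 (cell cycle and apoptosis regulator 1) has a similar domain layout and acts as a transcriptional coactivator. These are relations between proteins, and the arrays measured RNA only.

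Values are log2 intensities after RMA, the authors' normalisation, so a difference of 1 is a 2-fold difference in intensity. The array medians lay between 7.32 and 7.40, and pairs of arrays correlated at 0.991 to 0.995 across probe sets. The 8 mesenchymal markers of the line all passed the filter, which 13813 of all 18417 genes passed. VIM (vimentin) read 12.6 in shNS and 12.5 in shDBC1, and SPARC, the dimmest of them, 6.82 and 7.12. The receptor genes ESR1 and PGR were both under the filter, and 9 of 11 luminal markers passed it, among them KRT8 and KRT18. Of the markers of other cells, 2 of 6 leukocyte and 4 of 7 fibroblast or endothelial genes passed. The leukocyte genes that passed were CD14 and CD68, and CD68 was the brightest of that list in both groups. The leukocyte genes PTPRC, CD3E, MS4A1 and LYZ were under the filter. The summed linear intensity of the leukocyte markers was 3994 to 4702 in shNS and 4523 to 5239 in shDBC1, that of the luminal markers 14059 to 16040 and 13350 to 14963, and that of the fibroblast and endothelial markers 890 to 1203 and 879 to 1231. The summed mesenchymal markers ran from 37496 to 39564 in shNS and from 34597 to 35467 in shDBC1, ranges that did not overlap. Such a sum weighs the brightest genes most. Taken singly, 4 of the 8 mesenchymal markers were below and 4 above 0 in shDBC1 minus shNS. Groups were separate for 3 lower and 3 higher of them, against 13.2% and 11.6% of all genes tested. The part of these differences in the results below was not tested. In a bulk sample, a change in the mix of cells and a change in RNA per cell cannot be told apart.

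CCAR2 was the member with the largest difference between the lines, and the only one whose groups did not overlap. Its probe set (8145201, on chromosome 8) read 9.62 and 9.41 in shNS and 8.76 and 8.16 in shDBC1. The highest shDBC1 reading was 0.65 below the lowest shNS reading, while the replicates of a group lay 0.20 apart in shNS and 0.60 apart in shDBC1. The log2 difference was -0.86 (1.81-fold lower) between the arrays numbered 1 and -1.25 (2.39-fold lower) between those numbered 2. Whether the depth of the loss differed between replicates was not tested. Over both, the log2 difference was -1.06 (SE 0.23, n = 2 and 2), and its 95% interval put the remaining intensity between 31.4% and 73.7% of the control. The limma fit over all genes gave CCAR2 an unadjusted p of 0.00762 and an adjusted p of 1, so the difference did not pass the threshold of 0.05 in the fit by group alone. With the replicate number as a further term it passed, as given with the alternatives. Leaving out single arrays moved it between -1.36 and -0.75. Of all genes tested, 20 had a lower difference, which placed CCAR2 21st from the bottom, and 23 genes (0.167%) were at least 2-fold lower.

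The genes beside CCAR2 on the chromosome gave a local comparison. The nearest measured protein-coding neighbours in RefSeq order, chosen after the data were seen, are PDLIM2 and C8orf58 on one side and BIN3 and EGR3 on the other. PDLIM2 read 8.82 and 8.81 in shNS and 8.93 and 8.82 in shDBC1, and C8orf58 read 8.88 and 8.87 against 8.88 and 8.83. BIN3, which encodes a bridging integrator protein, read 8.49 and 8.66 against 8.34 and 8.34, a log2 difference of -0.24 (SE 0.11, interval -0.54 to 0.06). The immediate early gene EGR3 differed by -0.02. Both BIN3 and EGR3 had separate groups with shDBC1 lower, as did 13.2% of all genes tested, and none of the 4 neighbours reached the size of the CCAR2 difference.

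Of the 10 members, 0 passed the adjusted threshold in the limma fit by group alone, as did 0 of all 13813 genes (0%). At an unadjusted p under 0.05 there was 1 member, CCAR2, against 475 genes (3.44%) in the whole table. The groups were separate for 1 of 10 members, against 24.9% of all genes. Apart from CCAR2, the 9 other members all had overlapping groups and intervals that included 0. Their median absolute difference was 0.038 on the log2 scale, and that over all genes was 0.090. The largest of the 9, that of ZNF326, was -0.21.

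**Figure D1:**
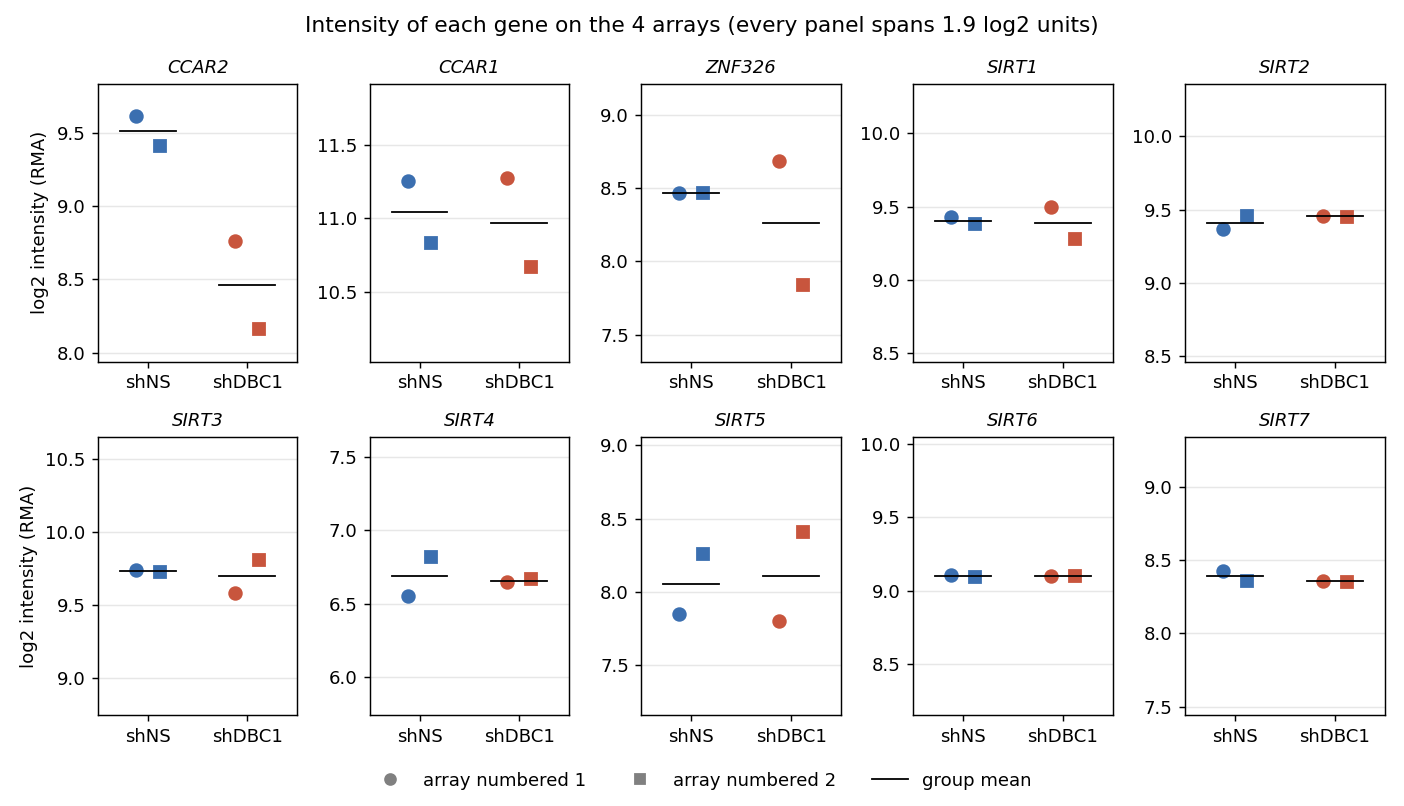
Log2 RMA intensity (vertical axes, each spanning 1.9 units) of the 10 genes on the 4 arrays, with shNS in blue, shDBC1 in red, circles for arrays numbered 1, squares for arrays numbered 2 and a line at each group mean. CCAR2 alone has both shDBC1 points under both shNS points, and CCAR1 and SIRT5 part by replicate number in both lines.

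ZNF326 and CCAR1 had the widest spread over the 4 arrays after CCAR2 itself, closely followed by SIRT5. ZNF326, whose protein joins CCAR2 in DBIRD, read 8.47 on both shNS arrays and 8.69 and 7.84 in shDBC1. The shDBC1 arrays thus lay on either side of the controls, 1 above by 0.22 and 1 below by 0.63. The difference of the means was -0.21 (SE 0.30, interval -0.99 to 0.58), and it was 0.22 without the second shDBC1 array. CCAR1 read 11.26 and 10.84 in shNS and 11.28 and 10.67 in shDBC1. The arrays numbered 1 were high and those numbered 2 were low in both lines, and the lines overlapped. CCAR1 differed between the lines by -0.08 (SE 0.27, interval -0.78 to 0.62). Without the first shNS array that value was 0.14, and without the second shDBC1 array it was 0.23. Both fits leave the replicate numbers uneven between the lines. Between same-numbered arrays CCAR1 differed by 0.017 (numbered 1) and -0.17 (numbered 2). For CCAR1 the interval reached from 1.71-fold lower to 1.54-fold higher, and for ZNF326 from 1.99-fold lower to 1.49-fold higher.

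SIRT1, the deacetylase that CCAR2 inhibits, had nearly the same intensity in both lines. It read 9.43 and 9.38 in shNS and 9.50 and 9.28 in shDBC1. The shDBC1 arrays held both the highest and the lowest of the 4 readings, which spanned 0.22. The log2 difference was -0.01 (SE 0.13), and its interval ran from 1.27-fold lower to 1.24-fold higher, so a 2-fold difference in SIRT1 RNA lay outside it. The sign of so small a value turned with single arrays (0.0097 without the first shNS array and 0.093 without the second shDBC1 array) and under repeated quantile normalisation (0.0015).

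SIRT6 and SIRT7, the other nuclear sirtuins, were the steadiest members. SIRT6, a chromatin deacetylase, read 9.11 and 9.09 in shNS and 9.10 and 9.10 in shDBC1. Its 4 readings spanned 0.016, and only 0.246% of the genes tested had a smaller span. SIRT7, a nucleolar sirtuin, read 8.43 and 8.36 in shNS and 8.36 and 8.35 in shDBC1. Its first shNS array was the highest and the other 3 lay together. SIRT6 differed by 0.0046 (interval -0.26 to 0.27) and SIRT7 by -0.03 (interval -0.31 to 0.24). The sign of SIRT6 was negative with arrays centred on their medians (-0.015) and without the second shNS array (-0.0033), and that of SIRT7 was positive without the first shNS array (0.00089). SIRT2, the tubulin deacetylase of the cytoplasm, read 9.36 and 9.45 in shNS and 9.46 and 9.45 in shDBC1, with the first shNS array below the rest. It differed by 0.04 (interval -0.23 to 0.32), and 5.72% of genes had a smaller span over the arrays.

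The mitochondrial sirtuins differed from each other in spread rather than in the comparison of the lines. SIRT3, the main mitochondrial deacetylase, read 9.74 and 9.73 in shNS and 9.58 and 9.81 in shDBC1. The controls lay between the shDBC1 arrays, and the difference was -0.04 (interval -0.37 to 0.30, and 0.076 without the first shDBC1 array). SIRT4, an ADP-ribosyltransferase and lipoamidase, read 6.55 and 6.82 in shNS and 6.64 and 6.67 in shDBC1, so here the shDBC1 arrays lay between the controls. It was the member closest to the filter level of 6.58, with 1 reading under it, and differed by -0.03 (interval -0.39 to 0.32, and 0.10 without the second shNS array). SIRT5, a desuccinylase and demalonylase, read 7.85 and 8.26 in shNS and 7.80 and 8.41 in shDBC1. Its arrays numbered 2 were the high ones in both lines, opposite to CCAR1. SIRT5 differed between the lines by 0.05, with the widest interval of the sirtuins in the fit by group alone (-0.64 to 0.75). With the replicate number as a further term that interval was -0.19 to 0.30. The SIRT5 difference was -0.15 without the first shNS array and -0.25 without the second shDBC1 array. Both fits leave the replicate numbers uneven between the lines. Of the 7 sirtuins, 4 had a negative and 3 a positive difference, from -0.04 to 0.05. Each interval lay within a 2-fold difference in either direction, as did those of 12932 of the 13813 genes tested.

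**Figure D2:**
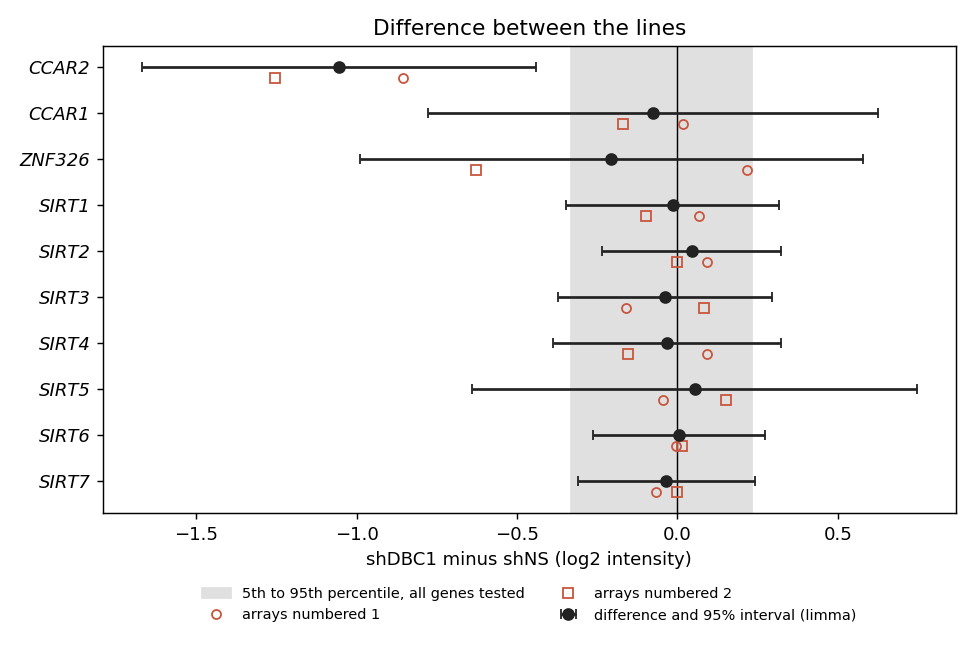
Difference between shDBC1 and shNS in log2 intensity (horizontal axis) for the 10 genes, with black points and bars for the limma estimate and 95% interval, open symbols for the 2 same-numbered pairs of arrays, and a grey band from the 5th to the 95th percentile of all genes tested (-0.33 to 0.23). CCAR2 lies at -1.06, and the other 9 lie between -0.21 and 0.05, inside the band.

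Several members differed more by replicate number than by line. The arrays numbered 2 minus those numbered 1 gave a log2 difference of -0.52 for CCAR1 (11.27 against 10.75), -0.42 for ZNF326, -0.40 for CCAR2 and 0.51 for SIRT5 (7.82 against 8.33). For ZNF326 that difference came from the shDBC1 arrays alone, since its shNS arrays read the same. The direction was the same in both lines for 6 members: CCAR2, CCAR1, SIRT1 and SIRT7 were lower on the arrays numbered 2, and SIRT4 and SIRT5 were higher. The difference by number was larger than the difference by line for 8 of 10 members, and so it was for 63.4% of all genes. The arrays numbered 1 and 2 did not overlap for 5 members (CCAR1, SIRT1, SIRT4, SIRT5 and SIRT7), against 53.1% of all genes, a share near that background. The labels do not say what arrays of the same number have in common.

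**Figure D3:**
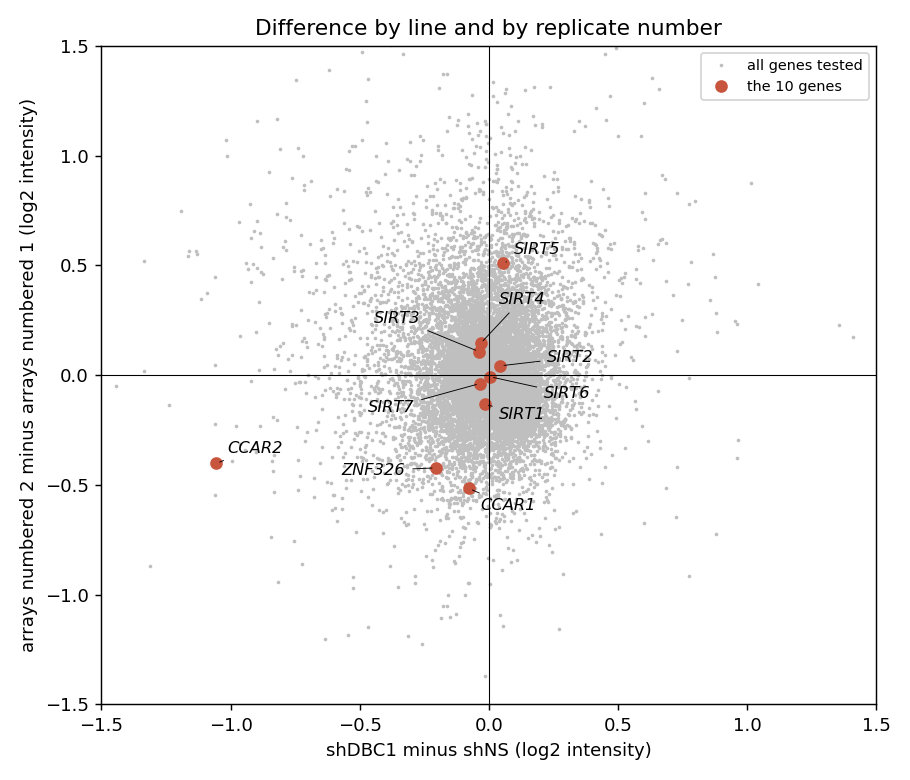
Each gene's difference by line (horizontal axis, shDBC1 minus shNS) against its difference by replicate number (vertical axis, arrays numbered 2 minus arrays numbered 1), both in log2 intensity, with all genes tested in grey (18 lie outside the axes) and the 10 genes in red. CCAR2 lies far to the left, while CCAR1 (-0.52) and SIRT5 (0.51) part along the vertical axis only.

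Promoter sequences were compared to see what the members share besides their proteins' relations. RefSeq promoters on GRCh38.p14 were matched by symbol for 8 of the 10 genes, all but CCAR2 and SIRT7, and the 250 bases before the upstream-most start were searched on both strands. SIRT1, whose protein CCAR2 inhibits, is shown for its 2 E-boxes (CACGTG, the letters bound by MYC and related factors), in capitals. They begin 123 and 44 bases before the start, and no other member matched had this motif, which 6.46% of 27305 promoters of the same length hold. The window is chr10:67884406-67884655 on the plus strand.
SIRT1: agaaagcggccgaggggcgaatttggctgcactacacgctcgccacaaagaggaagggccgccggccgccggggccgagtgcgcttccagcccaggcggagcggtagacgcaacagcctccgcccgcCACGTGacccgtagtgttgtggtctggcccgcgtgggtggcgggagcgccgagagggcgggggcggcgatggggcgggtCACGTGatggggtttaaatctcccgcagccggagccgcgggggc

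CCAR1, SIRT5 and SIRT6 are shown because their windows share the letters CGCATGCG, the palindromic core of the motif of NRF1 (nuclear respiratory factor 1, a regulator of genes with mitochondrial and housekeeping roles). The motif is in capitals, it was picked after the sequences had been seen, and 1.87% of all promoters hold it, so its presence in 3 of 8 is a description without a test. The windows are chr10:68720989-68721238 (plus strand), chr6:13574279-13574528 (plus strand) and chr19:4182564-4182813 (minus strand). The motif begins 17, 67 and 110 bases before the start.
CCAR1: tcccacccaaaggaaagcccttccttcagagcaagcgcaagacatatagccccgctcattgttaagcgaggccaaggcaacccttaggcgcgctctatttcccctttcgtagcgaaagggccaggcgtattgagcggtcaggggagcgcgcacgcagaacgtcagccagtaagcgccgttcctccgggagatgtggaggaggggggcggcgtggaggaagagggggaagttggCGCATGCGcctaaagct
SIRT5: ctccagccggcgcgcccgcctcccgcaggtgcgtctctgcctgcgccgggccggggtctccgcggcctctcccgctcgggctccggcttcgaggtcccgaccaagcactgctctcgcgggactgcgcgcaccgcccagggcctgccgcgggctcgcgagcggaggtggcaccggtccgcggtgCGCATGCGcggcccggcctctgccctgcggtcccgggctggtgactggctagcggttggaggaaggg
SIRT6: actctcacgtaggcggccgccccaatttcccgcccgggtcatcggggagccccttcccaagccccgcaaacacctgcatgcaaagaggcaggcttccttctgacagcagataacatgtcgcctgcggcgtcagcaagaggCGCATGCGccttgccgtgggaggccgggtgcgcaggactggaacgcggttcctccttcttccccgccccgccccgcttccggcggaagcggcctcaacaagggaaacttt

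The 3 genes with this motif did not share a pattern on the arrays: CCAR1 was lower and SIRT5 higher on the arrays numbered 2, and SIRT6 hardly varied. Among the other motifs searched, the GC box GGGCGG was in 5 of the 8 windows (42.2% of all promoters) and the CCAAT box (CCAAT) in 3 (33.0%). The cyclic AMP response element TGACGTCA was in the SIRT4 window only, and 1.75% of all promoters hold it.

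By the rule set for the pattern of CCAR2, the 4 tested genes with the closest profile over the 4 arrays were SMARCD1, MTRR, DOLPP1 and SLIT2. The measure was the root mean square difference of log2 values, each taken relative to the gene's shNS mean, and it was 0.045 for SMARCD1, 0.082 for MTRR, 0.091 for DOLPP1 and 0.094 for SLIT2. SMARCD1, a subunit of SWI/SNF chromatin remodelling complexes, read 10.47 and 10.25 in shNS and 9.65 and 9.08 in shDBC1. As for CCAR2, its second shDBC1 array was the lowest of the 4. It was 1.99-fold lower (log2 difference -0.99, SE 0.23). MTRR, which reactivates methionine synthase, was 2.08-fold lower (-1.06, SE 0.30). DOLPP1, a dolichyl pyrophosphate phosphatase, differed by -0.94 and SLIT2, a secreted guidance ligand of ROBO receptors, by -1.06. These genes were picked for their likeness, so their differences are a description. Each had an adjusted p of 1 in limma.

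The other genes of the pathway were taken from 5 lists, and 0 genes of any list passed the adjusted threshold in the limma fit by group alone. With the replicate number as a further term CPS1 and KYNU passed, as given with the alternatives. Among all genes tested the median difference was 0.0065. The list medians given here are over all 4 arrays, and 4 of the 5 changed sign with 1 array left out. Such a fit also leaves the replicate numbers uneven between the lines. The range with 1 array left out was -0.049 to 0.071 for the partners and -0.081 to 0.091 for the polymerase subunits. It was -0.090 to 0.068 for the mitochondrial substrates and -0.079 to 0.14 for the NAD genes. With all arrays kept, repeated quantile normalisation put the median at 0.013 for the subunits and 0.0055 for the SIRT1 list, and the 50th percentile filter put it at -0.014 for the NAD genes. Of 25 reported partners and modifiers of the CCAR2 protein, 18 were tested, 4 had no probe set of a single symbol and 3 were under the filter. In this list 8 were below and 10 above 0, with a median of 0.026. Groups were separate for 2 lower and 3 higher genes of the 18, against 13.2% and 11.6% of all genes tested. The transcription factor gene MYC read 10.93 and 11.00 in shNS and 11.15 and 11.46 in shDBC1, a difference of 0.34 (SE 0.15), with both shDBC1 arrays above the controls. ATM, the DNA damage kinase that phosphorylates CCAR2, differed by 0.24 (SE 0.11). The ETS factor gene ETV4 differed by -0.26 and the histone deacetylase gene HDAC3 by -0.18.

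All 12 subunits of RNA polymerase II, the enzyme that DBIRD binds, were tested, with 6 below and 6 above 0 and a median of -0.0048. POLR2E, a subunit shared by the nuclear polymerases, read 11.38 and 11.28 in shNS and 11.11 and 10.98 in shDBC1, a difference of -0.29 (SE 0.12). POLR2G differed by -0.20, and the groups of both genes were separate with shDBC1 lower. The second-largest subunit gene POLR2B differed by 0.12, with separate groups and shDBC1 higher, and POLR2I differed by 0.10. Groups were thus separate for 2 lower and 1 higher of the 12 subunits, against 13.2% and 11.6% of all genes tested. The arrays numbered 2 were lower in both lines for 9 of the 12 and higher in both for 0, against 34.6% and 33.3% of all genes.

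All 34 regulators and substrates of SIRT1 in the list were tested, with 18 below and 16 above 0 and a median of -0.011. Groups were separate for 5 lower and 3 higher genes of the 34, against 13.2% and 11.6% of all genes tested. PRKAA2, a catalytic subunit of the energy-sensing kinase AMPK, read 9.53 and 9.78 in shNS and 9.25 and 9.13 in shDBC1. Both shDBC1 arrays were below both controls, and the log2 difference was -0.47 (SE 0.14, unadjusted limma p 0.0212, adjusted p 1). WRN, the helicase gene of Werner syndrome, differed by -0.38 (SE 0.15), the clock gene BMAL1 by -0.25 (SE 0.12) and the lipid synthesis regulator SREBF1 by -0.43 (SE 0.25).

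Of 17 reported substrates of the mitochondrial sirtuins 14 were tested, with 8 below and 6 above 0 and a median of -0.049. The largest difference was that of CPS1, the urea cycle enzyme that SIRT5 modifies, which read 6.92 and 7.60 in shNS and 6.25 and 6.71 in shDBC1. Both its shDBC1 arrays were below both controls, and the difference was -0.78 (SE 0.29). The first shDBC1 array and the shDBC1 mean (6.48) were below the filter level of 6.58. CPS1 thus passed the filter only through its shNS readings. MLYCD, the malonyl-CoA decarboxylase that SIRT4 acts on, differed by -0.21, the cyclophilin gene PPIF by -0.23 and the fatty acid oxidation gene HADHA by 0.20.

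Of 25 genes that make, phosphorylate or use NAD, the cosubstrate of sirtuins, 20 were tested, with 8 below and 12 above 0 and a median of 0.046. KYNU, kynureninase of the pathway from tryptophan to NAD, read 8.60 and 9.07 in shNS and 7.36 and 8.45 in shDBC1. The groups were separate, but the shDBC1 arrays were 1.09 apart, and the difference was -0.93 (SE 0.41). NADK, which turns NAD into NADP, differed by -0.23 (SE 0.11), the NAD-using polymerase gene PARP2 by 0.21 (SE 0.11) and the transhydrogenase gene NNT by 0.27 (SE 0.16). In this list 5 of the 20 genes had separate groups with shDBC1 lower and 3 with it higher, against 13.2% and 11.6% of all genes.

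**Figure D4:**
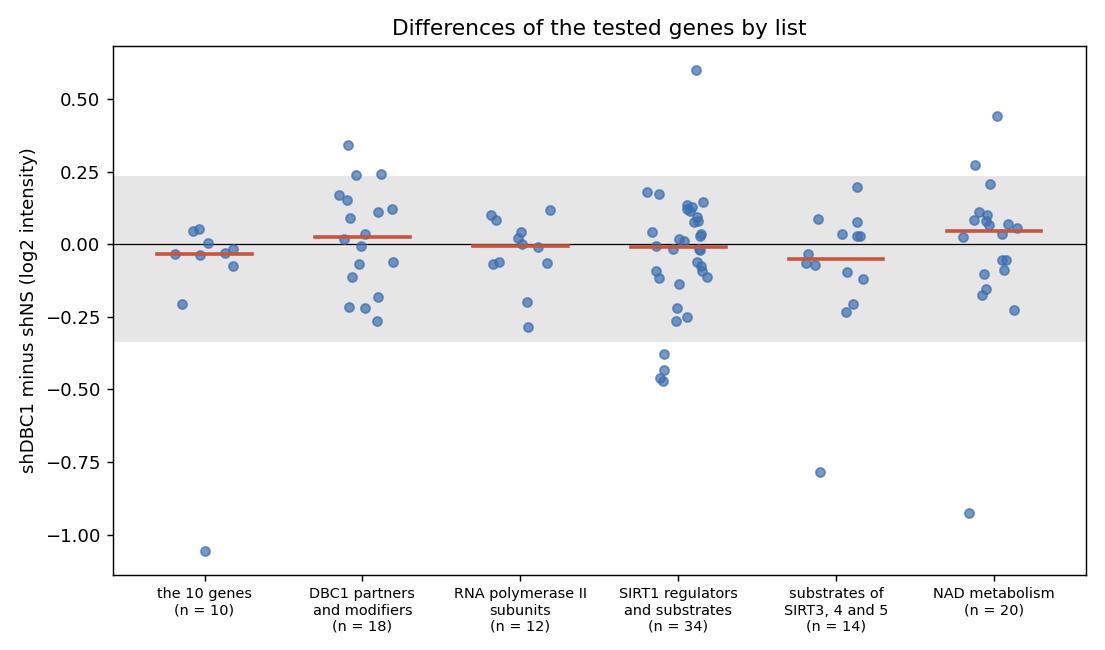
Difference between shDBC1 and shNS in log2 intensity (vertical axis) for each tested gene of the 10 and of the 5 lists, with a red line at each median and a grey band from the 5th to the 95th percentile of all genes tested. The list medians lie between -0.049 and 0.046 over all 4 arrays, and CCAR2, KYNU and CPS1 are the lowest points.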

How the data were processed

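The authors deposited 1 normalised log2 intensity per probe set and array, made with GCOS and RMA per the submitters' processing notes. The log2 scale was read from the values, which ran from 2.52 to 14.1. Their versions, any filter and the annotation build were not given in the sources used here. Folds of dim genes are shrunk by RMA, and a shift common to all genes would be removed by it.

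Of 33297 probe sets, 19460 carried 1 symbol in the platform table, 1754 several and 12083 none there. A gene's brightest probe set over the 4 arrays stood for it. Genes with a mean under the 25th percentile (6.58) were left out of tests, which left 13813. BRINP1 has shared the alias DBC1 and was not used. Lines were compared by a two-sided limma fit (version 3.58.1, R 4.3.3, lmFit then eBayes) with no term but the group, Benjamini-Hochberg adjustment over all genes tested and a threshold of 0.05. Errors are SE, and intervals are at 95%. The procedure was run on simulated data in which the arrays varied independently. That simulation held no difference by replicate number, so it cannot show how the fit by group alone behaves with one. With 2 arrays per group, their number limits the precision. Intensities of different probe sets are not compared with each other.

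The members and lists were chosen with earlier results of these data known. Named genes are the 10 members, the 4 profiles closest to CCAR2 and, of each list, the 4 tested genes with the smallest p; others are named as chosen after their values were seen or as markers. The alternatives were 9 other settings and 4 fits without 1 array.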

Additional observations from a re-analysis of the deposited data

How the results depend on the processing

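The log2 difference of CCAR2 lay between -1.08 and -1.05 in the 9 settings that kept all arrays, and between -1.36 and -0.75 with 1 array left out. Its limma adjusted p was 0.832 to 1 in the 12 alternatives other than the replicate block. With a replicate block, which fits the number as a term, CCAR2 differed by -1.06 (SE 0.12) and passed (limma adjusted p 0.0232). In that fit the interval was -0.32 to 0.17 for CCAR1 and -0.19 to 0.30 for SIRT5, narrower than by group alone and still including 0. The block called 113 genes in all (0.818%), 1 of the 10 members and 2 genes of the lists, CPS1 (adjusted p 0.0291) and KYNU (0.0471), against 0 in the other settings and in each fit with 1 array left out. CPS1 was among the genes tested only through its shNS readings, since its shDBC1 mean (6.48) was below the filter level. The replicate numbers come from the labels, which do not say that a number marks a shared culture or day. Deviations from the group mean correlated at 0.653, across genes, between arrays of the same number. In the settings with all arrays 2 members changed sign, SIRT1 to 0.0015 after repeated quantile normalisation and SIRT6 to -0.015 with arrays centred on their medians. These alternatives put the median of all genes at 0.010 and -0.014. With 1 array left out the ranges were -0.38 to 0.23 for CCAR1, -0.63 to 0.22 for ZNF326, -0.12 to 0.093 for SIRT1 and 0.00033 to 0.090 for SIRT2. They were -0.15 to 0.076 for SIRT3, -0.17 to 0.10 for SIRT4, -0.25 to 0.36 for SIRT5, -0.0033 to 0.013 for SIRT6 and -0.070 to 0.00089 for SIRT7. Leaving out 1 array unbalances the replicate numbers, and the lone array is assumed to vary like the other group. SIRT4 and SIRT5 were under the 50th percentile filter and have no value there.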

Other observations

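Some readings agreed between arrays to nearly all deposited digits. ZNF326 differed by 1e-06 between the shNS arrays. Of the 13813 genes tested, 168 (1.22%) agreed within 1e-05 between the shNS arrays and 223 (1.61%) between the shDBC1 arrays. Between the first shNS and the first shDBC1 array it was 436 genes (3.16%), the most of any pair. The plain SD of such a pair is close to 0 and says little about the precision of the gene. The receptor gene PGR, named after its values were seen, read 5.43 on every array.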
